A study of Mus musculus with 14 samples.

Results

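Promoter contacts were compared between cranial neural crest cells (CNCCs) of the maxillary (Mx) and of the mandibular (Md) component of the first pharyngeal arch at E10.5. The comparison used 4 of the 14 libraries of the series, 2 wild-type Mx and 2 wild-type Md, chosen by their labels. The 4 libraries listed 403225 different same-chromosome pairs of a promoter fragment and another fragment. Of these, 9254 pairs (2.29%) were listed in both Mx libraries and no Md library and are called Mx-side pairs below, and 8993 (2.23%) were listed in both Md libraries and no Mx library and are called Md-side pairs. Another 43682 pairs were listed in all 4 libraries. The Md-side pairs included 21 of the *Hand2* promoter and 10 of the *Pitx1* promoter. The Mx-side pairs included 10 of the *Foxl2* promoter, 8 of the *Tbx2* promoter and 12 of the *Cdon* promoter. Of 22032 promoter fragments with a listed pair, 43 had at least 8 Mx-side pairs and 44 had at least 8 Md-side pairs. Promoters of other genes had more, such as *Zik1* with 37 Md-side pairs and *Peg3* and *Usp29* with 25 Mx-side pairs. With 2 libraries a group, no promoter differed in its number of listed pairs past an adjusted p of 0.05, and the shares of pairs that replicates of a label had in common lay within the range of libraries of different labels.

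In both groups the cells came from embryos carrying the Wnt1::Cre driver and a ROSA-RFP reporter, were micro-dissected from the arch, and were sorted by RFP fluorescence, so that a cell counts as a CNCC by its Wnt1::Cre history. The methods state that the replicates were biologically independent, and no number of embryos per library is given in the sources used here. The libraries used for comparison were wild-type E10.5 CNCCs of the frontonasal process (FNP) and the second pharyngeal arch (PA2), E10.5 PA2 CNCCs of *Hoxa2* knockout embryos, and wild-type CNCCs of the pinna at E12.5 and E14.5, with 2 libraries each. According to the methods, the knockout cells were sorted by GFP fluorescence, from embryos homozygous for the *Hoxa2* EGFP allele. Promoter capture Hi-C (PCHi-C) measures DNA contacts and no RNA, so the labels could not be checked against marker expression.

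The first arch forms the upper jaw from its Mx component and the lower jaw from its Md component. Endothelin signalling in the Md component turns on *Dlx5* and *Dlx6*, which in turn are needed for *Hand2*, whereas *Dlx1* and *Dlx2* are used in both components and *Pou3f3* marks the dorsal, maxillary side. Genes of this kind are often controlled by enhancers far from their promoters. PCHi-C cuts cross-linked chromatin with HindIII, ligates fragments that lie close together, and pulls down the products that contain a promoter fragment, called the bait. The CHiCAGO score of a pair is a weighted negative logarithm of a p-value against the background expected at its distance within the same library. Only pairs with a score of 5 or more are listed, so a missing pair can have any lower score, and it was set to 0.

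Sequences of the contacts on which the comparison of *Hand2*, *Pitx1*, *Foxl2* and *Tbx2* turns are shown first. For each of these baits, the line gives the first 300 bases, on the plus strand of GRCm38, of the fragment of the one-sided pair with the highest lower score of its 2 libraries. The *Hand2* and *Pitx1* fragments were listed on the Md side and the *Tbx2* and *Foxl2* fragments on the Mx side. Capitals mark the bases that a HindIII cut leaves at the start of the fragment, and the motifs TAATTA (a homeodomain core) and CATCTG (an E-box), searched on both strands.
Hand2 contact, chr8:56648087-56648386: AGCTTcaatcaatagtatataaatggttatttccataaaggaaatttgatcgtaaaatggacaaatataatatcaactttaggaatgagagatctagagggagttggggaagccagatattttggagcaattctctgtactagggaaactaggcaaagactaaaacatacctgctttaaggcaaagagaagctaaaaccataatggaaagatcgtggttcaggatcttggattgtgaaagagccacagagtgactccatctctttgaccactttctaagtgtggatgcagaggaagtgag
Pitx1 contact, chr13:55943559-55943858: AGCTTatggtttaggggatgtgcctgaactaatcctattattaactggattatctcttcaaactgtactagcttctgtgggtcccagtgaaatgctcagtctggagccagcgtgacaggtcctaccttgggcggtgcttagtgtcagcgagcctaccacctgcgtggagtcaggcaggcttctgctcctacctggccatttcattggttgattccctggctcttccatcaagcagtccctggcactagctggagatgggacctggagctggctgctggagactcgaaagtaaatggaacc
Foxl2 contact, chr9:98705291-98705590: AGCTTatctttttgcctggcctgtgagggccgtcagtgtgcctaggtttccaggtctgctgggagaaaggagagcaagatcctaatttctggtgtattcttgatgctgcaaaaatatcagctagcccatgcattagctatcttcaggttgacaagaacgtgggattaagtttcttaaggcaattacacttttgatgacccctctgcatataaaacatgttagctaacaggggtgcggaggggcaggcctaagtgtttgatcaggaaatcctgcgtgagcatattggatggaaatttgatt
Tbx2 contact, chr11:85427681-85427980: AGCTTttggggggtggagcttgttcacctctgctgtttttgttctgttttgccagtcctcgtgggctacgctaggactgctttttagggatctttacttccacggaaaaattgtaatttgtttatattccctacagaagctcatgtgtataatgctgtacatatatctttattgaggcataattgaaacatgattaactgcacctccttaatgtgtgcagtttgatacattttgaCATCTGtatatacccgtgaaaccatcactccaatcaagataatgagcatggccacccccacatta

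The *Tbx2* fragment held 1 CATCTG and no TAATTA in the bases shown, and neither set of letters was found in the other 3. Of the 179752 other-end fragments listed in any of the 4 libraries, 10.8% had TAATTA and 20.9% had CATCTG in their first 300 bases. The promoters of *Hand2* and *Foxl2*, from 250 bases before to 50 bases after the gene start in RefSeq (GRCm38.p6, plus strand), are shown because they lie in the baits of these contacts. *Pitx1* and *Tbx2* are named only.
Hand2 promoter, chr8:57320733-57321032: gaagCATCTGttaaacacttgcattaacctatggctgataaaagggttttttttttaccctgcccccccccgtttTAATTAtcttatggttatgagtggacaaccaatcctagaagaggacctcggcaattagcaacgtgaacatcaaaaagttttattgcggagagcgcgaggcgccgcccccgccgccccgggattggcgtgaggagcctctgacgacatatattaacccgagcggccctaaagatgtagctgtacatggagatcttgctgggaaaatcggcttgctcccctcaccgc
Foxl2 promoter, chr9:98955357-98955656: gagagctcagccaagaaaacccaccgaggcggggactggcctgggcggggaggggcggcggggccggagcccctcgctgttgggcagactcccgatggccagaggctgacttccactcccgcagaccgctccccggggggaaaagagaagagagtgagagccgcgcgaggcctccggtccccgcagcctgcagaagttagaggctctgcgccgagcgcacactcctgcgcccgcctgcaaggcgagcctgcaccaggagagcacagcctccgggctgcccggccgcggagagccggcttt

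The *Hand2* promoter held 1 TAATTA and 1 CATCTG, and the *Foxl2* promoter held neither. Of 32851 RefSeq promoters of the same length, 5.29% had TAATTA and 17.2% had CATCTG. These matches describe the letters in the windows and not bound sites.

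The Mx replicates listed 151455 and 157277 same-chromosome pairs and the Md replicates 173477 and 176770. Below a distance of 2 Mb the numbers were closer, with 133063 and 134716 in Mx and 125410 and 142012 in Md. Md replicate 1, whose deposited name says that it was merged, stood apart. In it 46.4% of all listed pairs joined different chromosomes, against 2.98%, 3.59% and 3.33% in Mx replicates 1 and 2 and Md replicate 2, and such pairs were left out of the comparison. Since the deposited values are scores and not reads, the depth of each library is unknown, and its part in the results was not tested. The libraries were made from pools of sorted cells, so a contact in fewer cells and a weaker contact in each cell cannot be told apart.

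The overlap between replicates of 1 label lay within the range of the overlap between labels. The pairs shared by 2 libraries, as a percentage of the pairs listed in either, were 29.9% for the Mx replicates and 24.3% for the Md replicates. Between Mx and Md libraries the values were 25.1%, 24.2%, 29.1% and 30.2%, so the overlap of Mx replicate 2 with Md replicate 2 was as high as that of the Mx replicates with each other. Over the 8 wild-type E10.5 libraries the median was 29.7% within a label and 29.1% between labels, and the ranges were 24.3% to 30.2% and 23.8% to 30.3%. Md replicate 1 shared between 23.8% and 25.1% of pairs with any of the other 7 wild-type E10.5 libraries, its own replicate included. When only pairs under 2 Mb were used, the shares were 32.9% to 34.9% within a label and 30.9% to 37.1% between labels over the 8 libraries.

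**Figure D1:**
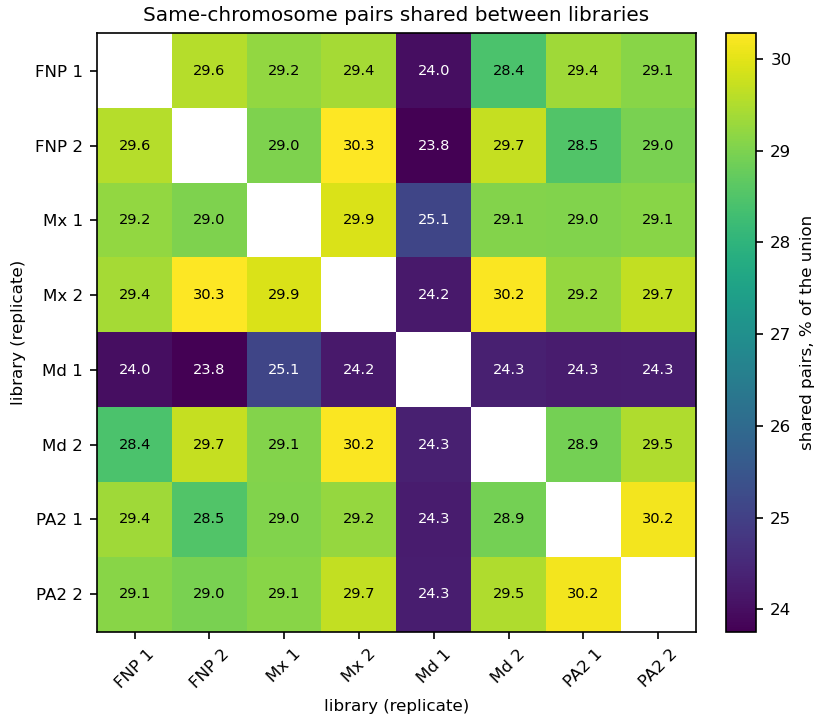
Pairs shared by 2 libraries, in percent of the pairs listed in either, for the 8 wild-type E10.5 libraries (2 replicates each of FNP, Mx, Md and PA2; both axes are libraries). Values lie between 23.8% and 30.3%, and the low row and column belong to Md replicate 1, which stood as far from Md replicate 2 as from the other labels.

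The listed Md pairs had a longer median distance than the listed Mx pairs, with a smaller difference under 2 Mb. The median distance of listed pairs was 369 and 387 kb in the Mx replicates and 538 and 457 kb in the Md replicates, so that the groups did not overlap. The means were 378 ± 12.3 kb (SD, n = 2) and 498 ± 57.1 kb (SD, n = 2), and the difference was -120 kb. Exact permutation over the 6 possible groupings gave a two-sided p of 0.333, below which this design cannot go. Pairs beyond 2 Mb made up 12.1% and 14.3% of the Mx lists and 27.7% and 19.7% of the Md lists. The difference was -22.5 kb over pairs under 2 Mb, and -79.1 kb over all distances with Md replicate 1 left out.

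One-sided pairs were mostly weak, and the Md-side ones had a longer median distance. Their balance depended on the length of the lists: with the same number of top-scoring pairs taken from each library, there were 10857 Mx-side and 6597 Md-side pairs. The median of the lower score of the 2 libraries was 5.53 for Mx-side pairs, 5.59 for Md-side pairs and 6.57 for pairs listed in all 4 libraries (there, the lowest of the 4). A score of 10 or more in both libraries was reached by 73 Mx-side and 155 Md-side pairs. The rule that chose the pairs ties them to the threshold, and 1105 Mx-side and 1016 Md-side pairs had a lower score under 5.1. On the other side of the rule, 18147 pairs were listed in both Mx libraries and 1 Md library, with a median score of 6.52 in that Md library, and 15837 in both Md libraries and 1 Mx library, with a median of 6.64 in that Mx library. The median distance was 331 kb for Mx-side pairs, 444 kb for Md-side pairs and 238 kb for pairs in all 4 libraries, and 15.7%, 23.8% and 7.16% of them lay beyond 1 Mb.

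The kind of DNA at the other end was close between the classes. Of the other-end fragments, 47.3% of the Mx-side, 46.3% of the Md-side and 47.8% of those listed in all 4 libraries touched an annotated exon. Fragments with intron only made up 23.7%, 22.5% and 22.8%, and intergenic fragments 29.0%, 31.2% and 29.4%. The other end was itself a bait in 14.8%, 14.1% and 20.3% of the pairs.

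A fit across pairs gave calls only where its filter let one-sided pairs in. limma on asinh of the score, over 134406 pairs listed in at least 2 of the 4 libraries, called 13420 pairs at an adjusted p below 0.05 (9.98%), of which 7102 were higher in Mx and 6318 in Md. Of these calls, 13340 were one-sided pairs, which pass the filter only through the side that lists them, and 80 were pairs listed in all 4 libraries. With pairs listed in at least 3 of the 4 libraries, limma called 0 of 77666 pairs, and 2170 (2.79%) had an unadjusted p below 0.05. With pairs chosen by the FNP and PA2 libraries it called 0 of 127708, with 2405 at an unadjusted p below 0.05. Leaving out any of the 4 libraries also left 0 calls, so the calls of this fit are given as a description.

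The *Hand2* promoter had the most Md-side pairs among the listed genes of jaw patterning. *Hand2* codes for a bHLH transcription factor that directs mandibular identity. Its bait (chr8:57318613-57347153) was listed with 39 and 36 fragments under 2 Mb in the Mx replicates and with 67 and 72 in the Md replicates, and the groups did not overlap. The log2 difference of Mx minus Md, after scaling to the library totals, was -0.88 ± 0.17 (SE). With limma over 12267 baits under 2 Mb the adjusted p was 0.924. Over all distances, with 42 and 42 pairs in Mx and 69 and 73 in Md, the log2 difference was -0.57 ± 0.20 (SE) and the adjusted p was 0.863.

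All 21 Md-side pairs of *Hand2* lay between 453 and 797 kb on the lower-coordinate side, in a window of 346 kb (chr8:56534748-56880740) that also held listed pairs of every other library. The window held 35 and 29 listed pairs of the *Hand2* bait in the Mx replicates, 61 and 64 in Md, 29 and 19 in FNP, and 49 and 53 in PA2. Its choice from the Md-side pairs favours high Md and low Mx counts. The PA2 libraries, which took no part in choosing the window, listed more pairs there than either Mx library, and the FNP libraries listed no more than the Mx libraries. The highest score in the window was close in both groups, 34.5 and 34.2 in Mx and 31.9 and 35.7 in Md, so its strongest contacts were listed on both sides. The knockout PA2 libraries listed 42 and 41 pairs in the window, the E12.5 pinna 31 and 39, and the E14.5 pinna 56 and 50.

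The strongest Md-side pair of *Hand2*, with the fragment at chr8:56648087-56650153 whose first bases are shown above, scored 12.02 and 14.51 in the Md replicates. It scored 11.2 and 9.49 in the PA2 replicates and was not listed in any Mx or FNP library. Of the 21 Md-side pairs, 13 were listed in at least 1 PA2 library and 8 in both, whereas 3 were listed in an FNP library and 0 in both. Over all Md-side pairs, the PA2 libraries listed 32.7% and 33.8% and the FNP libraries 30.3% and 34.1%. Of the 21 fragments, 12 were intergenic, 3 lay in introns and 6 touched an exon. The 2 Mx-side pairs of *Hand2* lay 16.3 and 20.8 kb from the bait on its higher-coordinate side.

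*Pitx1*, a homeobox gene of the Md and oral region and of the hindlimb, had fewer contacts and a similar split. Its bait (chr13:55825328-55839562) was listed with 16 and 9 fragments under 2 Mb in the Mx replicates and with 28 and 34 in the Md replicates, a log2 difference of -1.29 ± 0.31 (SE) with a limma adjusted p of 0.924. In the window of 184 kb that held 8 of its 10 Md-side pairs (chr13:55915423-56099744), between 86.8 and 266 kb from the bait, the Mx replicates listed 7 and 6 pairs and the Md replicates 20 and 23. FNP listed 5 and 4 pairs there, PA2 8 and 6, knockout PA2 4 and 7, the E12.5 pinna 9 and 10, and the E14.5 pinna 9 and 9. The window was chosen from the Md-side pairs, which favours the Md counts. The strongest Md-side pair of *Pitx1*, with the fragment at chr13:55943559-55944613, scored 6.85 and 7.32 in Md and was listed in no Mx, FNP or PA2 library. Of the 10 Md-side pairs, 8 were listed in no FNP or PA2 library, and 9 of the fragments were intronic, in *Pcbd2*, *H2afy* and the lncRNA gene *Gm47071*.

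A bait of the neighbouring gene *H2afy*, which codes for a macroH2A histone, was split in the same direction. This bait (chr13:56081538-56084952) was listed with 1 and 3 fragments in Mx and with 14 and 13 in Md over all distances, a log2 difference of -2.23 ± 0.47 (SE) with a limma adjusted p of 0.863. It was picked after its values were seen. In the window of its Md-side pairs on the lower-coordinate side (chr13:55595293-55669621), FNP and PA2 listed 0 pairs in each library, the Mx replicates 1 and 1, and the Md replicates 10 and 7. Choosing this window from the Md-side pairs favours high Md and low Mx counts. The second *H2afy* bait tested had 1 and 4 pairs in Mx and 4 and 4 in Md over all distances.

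*Foxl2*, a forkhead gene of periocular and maxillary mesenchyme, had the most Mx-side pairs of the genes of the dorsal programme. Its bait (chr9:98954761-98958562) was listed with 33 and 42 fragments under 2 Mb in Mx and with 19 and 23 in Md, and the groups did not overlap. The log2 difference was 0.80 ± 0.23 (SE), with a limma adjusted p of 0.924. Of its 10 Mx-side pairs, 8 lay in a window of 66.1 kb (chr9:98657981-98724061) between 237 and 297 kb from the bait. The Mx replicates listed 9 and 11 of the 12 fragments listed there in any library, and the Md replicates listed 1 and 2. Of these 12 fragments, 8 were the Mx-side pairs that set the window, so the choice itself favours high Mx and low Md counts.

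The FNP libraries resembled Mx in this *Foxl2* window, with 10 and 7 listed pairs, and the PA2 libraries resembled Md, with 2 and 3. Knockout PA2 listed 0 and 0, the E12.5 pinna 3 and 3, and the E14.5 pinna 2 and 6. The strongest pair, with the fragment at chr9:98705291-98705959, scored 10.9 and 14.2 in Mx, 7.93 in FNP replicate 1 and 5.34 in PA2 replicate 2, and was not listed in the other FNP and PA2 libraries. Among the 10 Mx-side pairs, 8 were listed in at least 1 FNP library and 6 in both, whereas 4 were listed in a PA2 library and 0 in both. The fragments were intergenic in 6 cases, and 3 touched an exon, of *Pisrt1* or *Dbr1*.

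*Tbx2*, a T-box gene expressed in several facial mesenchymes, had 8 Mx-side pairs and 0 Md-side pairs. Its bait (chr11:85827053-85834399) was listed with 79 and 79 fragments under 2 Mb in Mx and with 62 and 62 in Md, and the log2 difference was 0.34 ± 0.16 (SE) with a limma adjusted p of 0.924. The Mx-side pairs all lay inside the neighbouring gene *Bcas3*, 7 in introns and 1 touching an exon. Their window of 253 kb (chr11:85426245-85679490) held 60 and 64 listed pairs in Mx, 47 and 50 in Md, 52 and 49 in FNP, and 46 and 48 in PA2. Choosing it from the Mx-side pairs favours high Mx and low Md counts. The strongest pair, with the fragment at chr11:85427681-85428036 shown above, scored 15.7 and 13.0 in Mx, 8.66 and 7.96 in FNP and 5.67 in PA2 replicate 2. Of the 8 pairs, 5 were listed in both FNP libraries and 2 in both PA2 libraries.

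The bait of the lncRNA gene *Bcas3os2* (chr11:85775177-85775897), between *Bcas3* and *Tbx2*, had the lowest p of all 14860 baits tested over all distances. It was listed with 40 and 38 fragments in Mx and with 13 and 8 in Md, a log2 difference of 1.99 ± 0.31 (SE), with a limma adjusted p of 0.863. In the window of its Mx-side pairs FNP listed 18 and 19 pairs and PA2 21 and 16, against 32 and 33 in Mx and 11 and 7 in Md. The window was chosen from the Mx-side pairs, which favours high Mx and low Md counts. The bait of *Mir5110* in the same region was listed with 31 and 19 fragments in Mx and with 7 and 8 in Md over all distances. Both baits were picked after their values were seen.

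**Figure D2:**
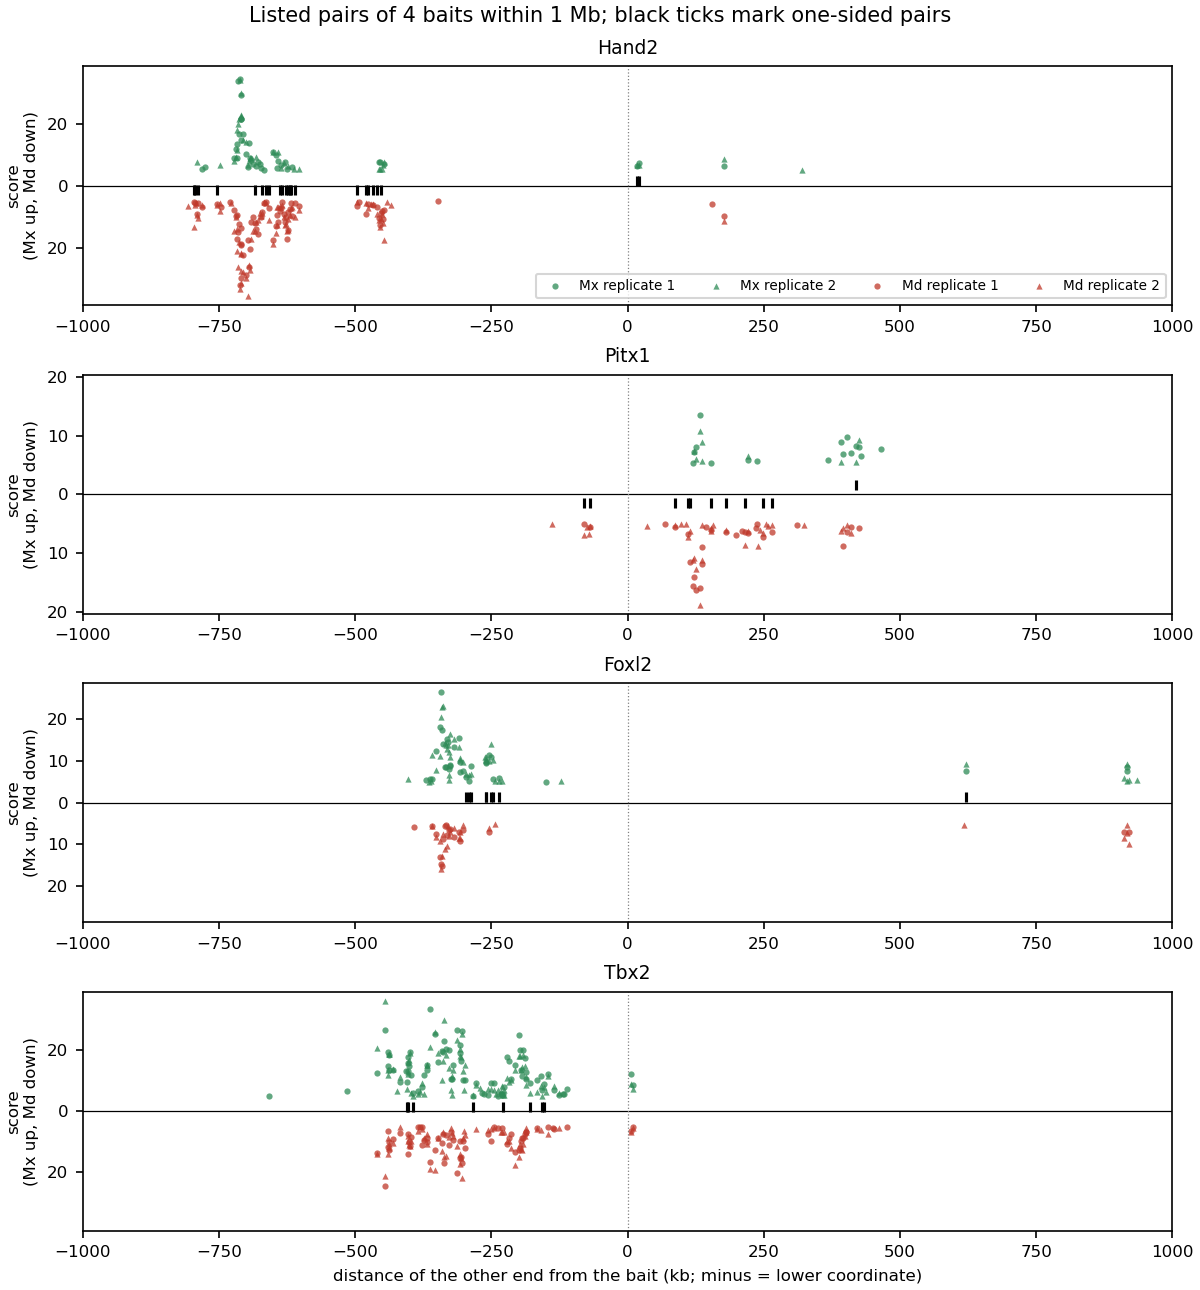
CHiCAGO scores of the listed pairs of the *Hand2*, *Pitx1*, *Foxl2* and *Tbx2* baits by the signed distance of the other end in kb, within 1 Mb, with Mx scores drawn upward and Md scores downward (circles, replicate 1; triangles, replicate 2) and black ticks at the one-sided pairs. The 21 Md-side ticks of *Hand2* lie between 453 and 797 kb on the lower-coordinate side, among contacts that both groups list with scores up to 34.5 and 35.7.

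Over all baits, none was called by the count of its pairs. limma on log2 of the scaled number of listed pairs plus 1, over 14860 baits with a mean of at least 3 pairs, called 0 baits at an adjusted p below 0.05, and the lowest adjusted p was 0.863. An unadjusted p below 0.05 was found for 832 baits (5.60%), and with pairs under 2 Mb for 625 of 12267 (5.09%), with 0 calls. Without Md replicate 1 the same fit called 46 baits and without Md replicate 2 it called 10, in fits where the lone Md library is taken to vary like the Mx pair, and without either Mx library it called 0. At least 1 Mx-side pair was found at 6346 of 22032 baits (28.8%) and at least 1 Md-side pair at 6129 (27.8%). Both kinds were found at 2845 baits. The gene lists below are set beside shares over all baits, which were not matched for the number of listed pairs per bait.

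Genes of the ventral, mandibular programme had one-sided pairs of both kinds. Of the 19 listed genes 18 had a bait. Mx-side pairs were found for 12 of them and Md-side pairs for 13. Of all baits, not matched for their number of pairs, 28.8% had an Mx-side pair and 27.8% an Md-side pair. The genes had 40 Mx-side and 57 Md-side pairs in all, and *Hand2* and *Pitx1* held 31 of the 57. The number of pairs under 2 Mb was higher in both Md than in both Mx libraries for 5 of them (*Hand2*, *Pitx1*, *Gbx2* and *Nkx3-2* among them) and higher in both Mx libraries for 4 (*Dlx5*, *Tbx2*, *Tbx3* and *Foxf1*). Over 21440 baits these shares were 10.9% for Md and 11.0% for Mx.

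*Dlx5*, a homeobox gene of ventral identity, was listed with more fragments in Mx than in Md. It had 66 and 74 pairs under 2 Mb in Mx and 56 and 53 in Md, and 44 and 41 in FNP and 55 and 64 in PA2. Its 7 Mx-side pairs outnumbered 2 Md-side pairs, and 6 of them lay between 698 and 983 kb away. *Dlx6* had no bait of its own, and the fragment that overlaps it belonged to a strong Mx-side pair described below. The log2 difference of *Dlx5* under 2 Mb was 0.35 ± 0.17 (SE), with a limma adjusted p of 0.924.

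*Nkx3-2*, which is needed for the jaw joint, had 32 and 29 pairs under 2 Mb in Mx and 33 and 40 in Md, with 4 Md-side pairs and 0 Mx-side pairs. Its groups were separated by 1 pair. *Gsc*, a homeobox gene of the Md component, had 50 and 38 pairs in Mx and 46 and 51 in Md, with 5 one-sided pairs of each kind, and its groups overlapped.

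The dorsal, maxillary programme had 37 Mx-side and 26 Md-side pairs over 17 genes. Mx-side pairs were found for 14 of the genes and Md-side pairs for 14, against 28.8% and 27.8% of all baits. The median bait with a pair listed under it had 4 or 5 such pairs in the Mx and Md libraries. Most genes of this list had more, so these shares are not like for like. In 5 genes (*Foxl2*, *Jag1*, *Eya1*, *Cyp26a1* and *Tbx22*) both Mx libraries listed more pairs under 2 Mb than both Md libraries, and in 0 genes did both Md libraries list more, against 11.0% and 10.9% of all baits. *Tbx22* is among them with 1 and 1 pairs in Mx and 0 and 0 in Md, and over all distances it had 2 and 2 in Mx and 10 and 3 in Md. *Jag1*, the Notch ligand of the dorsal arch, had 31 and 35 pairs in Mx and 15 and 26 in Md, with 6 Mx-side pairs and 1 Md-side pair. *Eya1*, a transcriptional cofactor and phosphatase, had 32 and 34 pairs in Mx and 21 and 28 in Md. The Mx counts of both genes were near those of FNP, 25 and 31 for *Jag1* and 32 and 33 for *Eya1*.

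*Pou3f3*, *Dlx1* and *Dlx2*, also on the dorsal list, showed no such separation. *Pou3f3*, a POU factor of the Mx component, had 45 and 49 pairs under 2 Mb in Mx and 41 and 52 in Md. *Dlx1* had 22 and 18 pairs in Mx and 8 and 21 in Md, and *Dlx2* had 19 and 20 against 13 and 19. In PA2 *Dlx1* had 35 and 39 pairs and *Dlx2* 48 and 38, above every Mx and Md library. The Mx and Md counts of *Pou3f3* and *Dlx1* overlapped, and those of *Dlx2* met at 19.

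Among 20 oral and skeletal factors of the first arch, both Mx libraries listed more pairs under 2 Mb in 7 and both Md libraries in 3. Among all baits this held for 11.0% and 10.9%. *Prrx1*, a homeobox gene of the jaw and limb mesenchyme, had 31 and 34 pairs in Mx and 22 and 17 in Md, with 5 Mx-side pairs and 0 Md-side pairs. *Pax9*, which is needed for teeth and palate, had 68 and 72 against 59 and 59, and *Lhx8* had 28 and 35 against 23 and 24. On the other side, *Tfap2a*, a regulator of crest and facial development, had 21 and 19 pairs in Mx and 25 and 32 in Md, with 2 Mx-side and 7 Md-side pairs. *Sox6*, a cartilage factor with 2 baits, had 4 Mx-side and 12 Md-side pairs and 61 and 58 against 69 and 68 pairs.

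**Figure D3:**
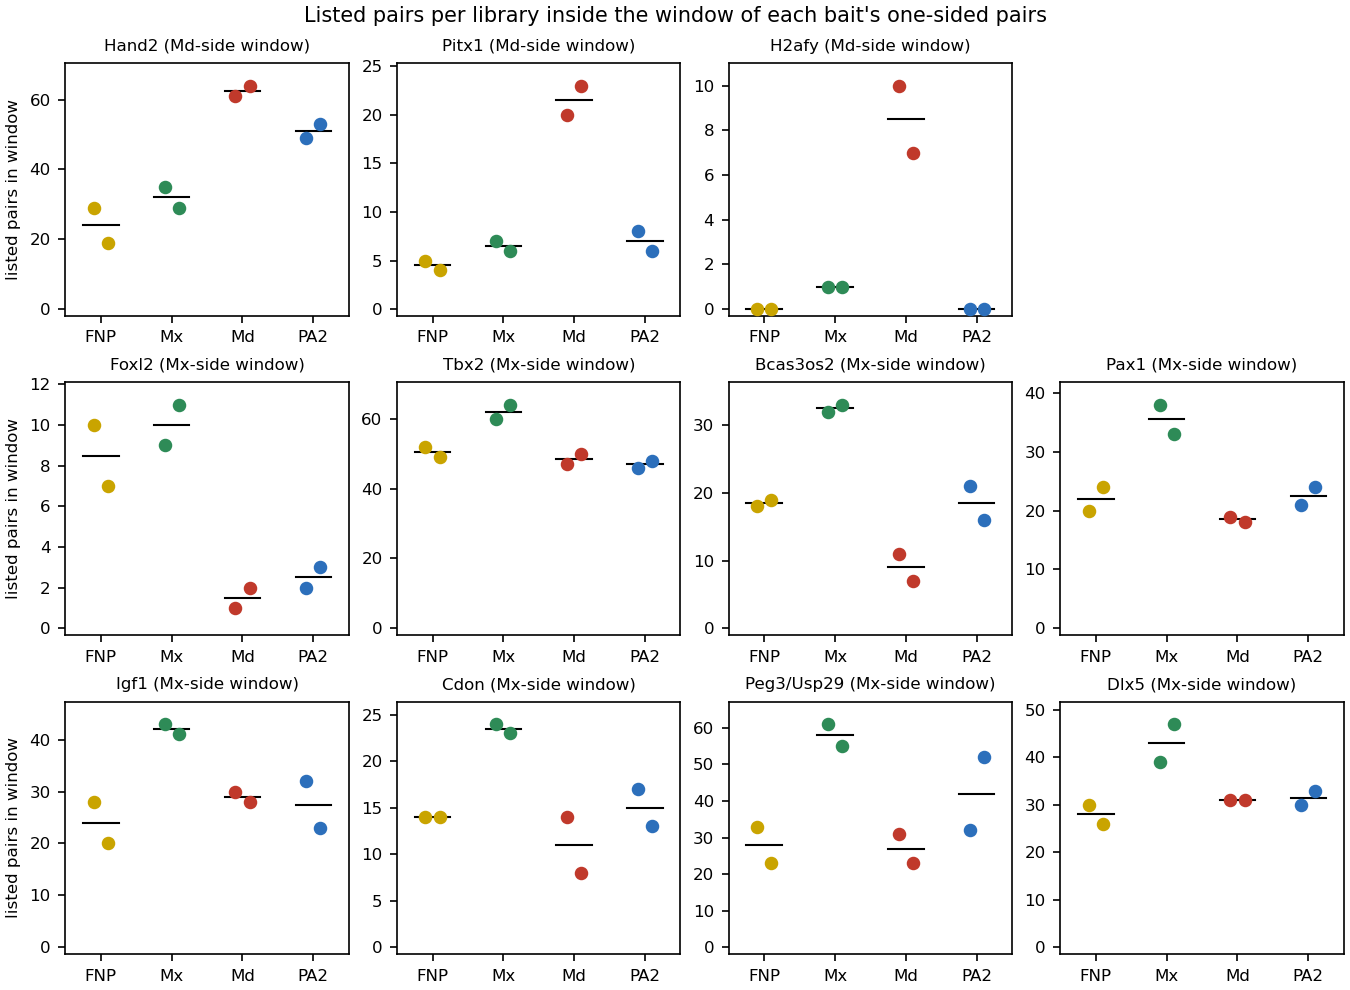
Number of listed pairs of a bait in each wild-type E10.5 library (2 points per group, the line is their mean; y axis, pairs) inside the window spanned by its Md-side pairs (upper row) or Mx-side pairs (middle and lower rows). Mx and Md are apart in each panel, and choosing the windows from these libraries favours such a gap. FNP and PA2 were not used in the choice. In the *Foxl2* window FNP lists 10 and 7 pairs and PA2 2 and 3. In the *Hand2* window FNP lists 29 and 19 and PA2 49 and 53.

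For the frontonasal factors, over 12 genes there were 27 Mx-side and 13 Md-side pairs. In 5 genes (*Alx4*, *Pax7*, *Six4* and *Tfap2e* among them) both Mx libraries listed more pairs under 2 Mb, with 0 genes the other way. The shares over all baits were 11.0% for Mx and 10.9% for Md. *Pax7* is among the 5 with 2 and 1 pairs in Mx and 0 and 0 in Md. Over all distances it had 2 and 1 in Mx and 1 and 2 in Md. *Alx4*, a homeobox gene of the upper face, had 50 and 40 pairs in FNP, 35 and 29 in Mx, 21 and 25 in Md, and 6 and 15 in PA2. The 4 subpopulations kept this order without overlap. *Six4* had 42 and 54 pairs in Mx and 26 and 39 in Md, with 7 Mx-side and 0 Md-side pairs. *Alx1* had 19 and 26 pairs in FNP, 7 and 11 in Mx, 7 and 6 in Md, and 2 and 2 in PA2, and the Mx and Md counts met at 7.

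*Hox* genes, which are silent in the first arch, were the longest list and had the most listed pairs. Summed gene by gene, there were 79 Mx-side and 65 Md-side pairs for 37 of 39 genes with a bait, and 977 pairs in all 4 libraries. In these sums a bait shared by genes, as for *Hoxa3* and *Hoxa7*, counts for each, and a pair of *Hox* baits counts for both. Both Mx libraries listed more pairs under 2 Mb for 4 genes (*Hoxa2*, *Hoxa9*, *Hoxc13* and *Hoxd4*) and both Md libraries for 3 (*Hoxc8*, *Hoxd12* and *Hoxd13*). The same was found for 11.0% and 10.9% of all baits. *Hoxa2* had 33 and 39 pairs under 2 Mb in Mx, 32 and 27 in Md, 27 and 27 in FNP, and 42 and 49 in PA2. Its groups in Mx and Md were separated by 1 pair, with 5 Mx-side and 0 Md-side pairs.

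The Hedgehog pathway had 25 Mx-side and 11 Md-side pairs over 12 genes with a bait, and *Cdon* alone held 12 of the 25. *Cdon*, *Boc*, *Gli2* and *Sufu* had more pairs under 2 Mb in both Mx libraries, and 0 genes had more in both Md libraries. Of all baits, 11.0% had more in both Mx libraries and 10.9% in both Md libraries. *Cdon*, a Hedgehog co-receptor (chr9:35420027-35422293), had 80 and 69 pairs under 2 Mb in Mx and 58 and 47 in Md. Within the window of its near Mx-side pairs, the Mx replicates listed 24 and 23 pairs and the Md replicates 14 and 8, against 14 and 14 in FNP, 17 and 13 in PA2, and 26 and 20 in the E12.5 pinna. The choice of window favours high Mx and low Md counts. *Ptch1*, the Hedgehog receptor, had 4 Mx-side and 5 Md-side pairs, and its counts overlapped.

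The other signalling lists held smaller numbers. Wnt pathway genes had 24 Mx-side and 9 Md-side pairs over 18 genes, with *Axin2*, a feedback inhibitor, at 5 and 2, and *Lef1*, a nuclear effector, at 31 and 32 pairs under 2 Mb in Mx against 24 and 24 in Md. Bmp pathway genes had 17 pairs of each kind over 20 genes, with *Bmp4*, a ligand of the Md epithelium and mesenchyme, at 4 Mx-side and 0 Md-side pairs, and *Id2*, a Bmp target, at 1 and 6. Fgf pathway genes had 20 Mx-side and 14 Md-side pairs over 16 genes. *Spred1*, a feedback inhibitor, had 4 Mx-side pairs and 0 Md-side pairs.

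Lists of other cell types served for comparison. Neural, glial and pigment factors had 11 Mx-side and 10 Md-side pairs over 12 genes, and epithelial and mesodermal factors had 9 and 13 over 15. *Myod1*, a muscle gene, had 5 Mx-side and 2 Md-side pairs and *Tal1*, a blood gene, had 0 and 4. A contact of a promoter is no measure of its activity, so these lists say nothing of the purity of the sort.

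**Figure D4:**
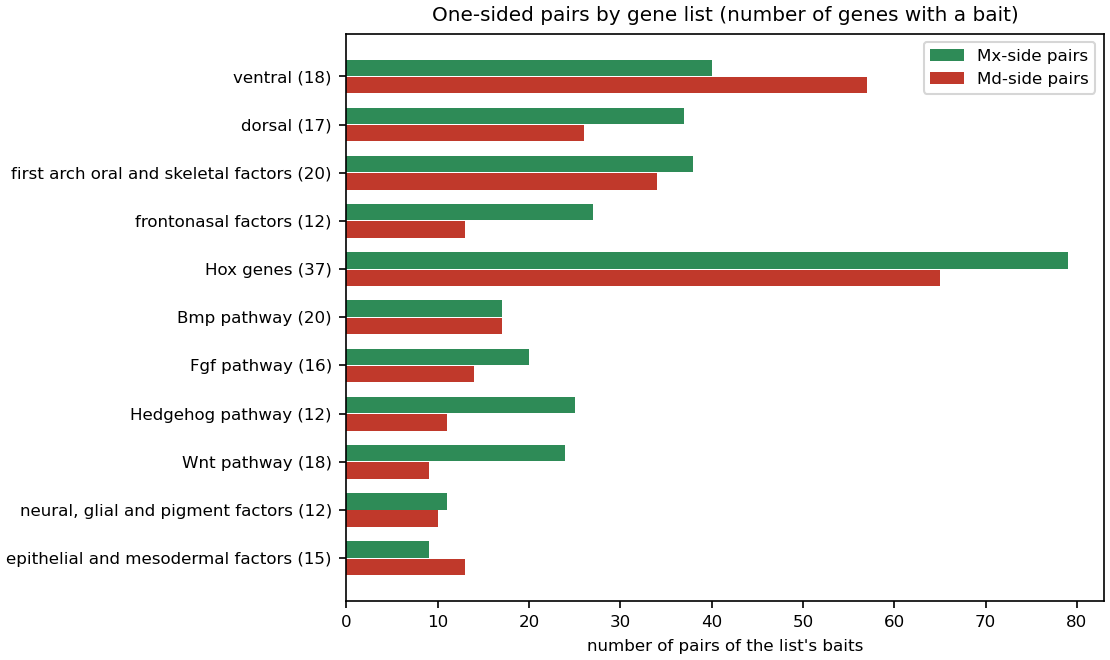
Number of Mx-side pairs (green) and Md-side pairs (red) of the baits of 11 gene lists (x axis, pairs; in brackets, genes with a bait). The ventral list has 40 Mx-side and 57 Md-side pairs, and the epithelial and mesodermal list has 9 and 13. The Bmp list has 17 of each kind, and all the other lists have more Mx-side than Md-side pairs.

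The list totals depended on how one-sided pairs were chosen. With each library cut to its top-scoring pairs at one common number, the Mx-side and Md-side totals were 40 and 46 for the ventral, 38 and 25 for the dorsal, 32 and 11 for the frontonasal, 29 and 6 for the Hedgehog and 34 and 8 for the Wnt list. With a lowest score of 10 they were 18 and 28, 18 and 3, 8 and 3, 11 and 2, and 7 and 4, in the same order of lists. Leaving out a library loosens the rule on its own side, and in these 5 lists the side with more pairs then followed the library left out, except for the Wnt list without Md replicate 2, with 72 Mx-side and 66 Md-side pairs.

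Outside these lists, the bait of *Peg3* and *Usp29* had the most Mx-side pairs. These imprinted genes share a promoter on chromosome 7 (chr7:6708428-6731381) and are expressed from the paternal copy. The bait had 86 and 80 pairs under 2 Mb in Mx, 43 and 32 in Md, 42 and 37 in FNP, and 42 and 76 in PA2, with 25 Mx-side pairs and 1 Md-side pair. PA2 replicate 2 was close to the Mx libraries and PA2 replicate 1 was not. The log2 difference under 2 Mb was 1.13 ± 0.22 (SE), with a limma adjusted p of 0.924.

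Some of the other baits at the top of the Mx side belong to developmental genes. *Pax1*, a paired-box gene of the pharyngeal pouches and the axial skeleton, had 49 and 35 pairs under 2 Mb in Mx and 25 and 23 in Md at one of its baits (chr2:147358183-147361945), with 10 Mx-side pairs and 1 Md-side pair, and 49 and 55 against 26 and 31 at the other. *Igf1*, the insulin-like growth factor gene, had 51 and 45 against 33 and 30 (chr10:87857455-87860662), with 10 Mx-side and 0 Md-side pairs. In FNP and PA2 the *Igf1* counts were 31 and 24, and 35 and 25, so that both Mx libraries were above the other 6 wild-type E10.5 libraries. The pinna libraries were not below Mx throughout. Over all distances *Igf1* had 51 and 45 pairs in Mx, 41 and 43 in the E12.5 pinna, and 45 and 59 in the E14.5 pinna. *Hmcn1*, which codes for an extracellular matrix protein, had 11 Mx-side pairs and 1 Md-side pair, with 78 and 63 pairs under 2 Mb in Mx and 62 and 59 in Md. *Clasrp*, a splicing regulator, had 12 Mx-side and 0 Md-side pairs and 62 and 50 against 22 and 34.

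At the top of the Md side, *Zik1* and the bait shared by *Hjurp* and *Trpm8* had many pairs of both kinds, 11 Mx-side and 37 Md-side for *Zik1* and 19 and 31 for *Hjurp* and *Trpm8*. These baits were listed with 205 to 510 and with 188 to 321 fragments in the 4 libraries over all distances. *Zfp324* had 5 Mx-side and 18 Md-side pairs, and 125 and 135 pairs in Mx against 132 and 230 in Md.

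Most of the strongest one-sided pairs joined loci over 2 Mb apart, with *Hist1h4c* on the Mx side at 1912 kb and *Piwil4* on the Md side at 853 kb as the exceptions among the 10 strongest of each side. On both sides the highest score belonged to *Mroh2a* (chr1:88226925-88229010) with a fragment near the start of the chromosome. On the Mx side this was the fragment from 3578818 to 3581329, with scores of 23.3 and 21.3 in Mx, and on the Md side the fragment from 3751682 to 3753687, with 37.9 and 23.4 in Md. Neither pair was listed in an FNP, PA2 or knockout library. The bait of *Hjurp* and *Trpm8* near *Mroh2a* and that of *Xkr4*, near the start of the chromosome, had one-sided pairs that join the same regions.

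Some of these pairs join 2 regulators of development. *Fezf1* (chr6:23246740-23251425), a forebrain zinc finger gene, was paired with the fragment that holds part of *Dlx6* and the start of *Dlx6os2* (chr6:6864914-6870464), 16381 kb away, with scores of 29.46 and 18.82 in Mx and 10.47 and 22.87 in FNP. It was listed in no Md, PA2 or knockout library. The *Dlx5* bait was also paired with the *Fezf1* bait, with scores of 12.1 and 10.7 in Mx, and in none of the Md, FNP and PA2 libraries. *Gsc* was paired with a fragment 14368 kb away that holds the first bases of *Sp8* (chr12:118838811-118846354) with 21.0 and 15.2 in Mx and 7.35 and 10.9 in FNP, and in no Md or PA2 library. *Vax2* was paired with the *Hoxa4* bait 31522 kb away with 16.3 and 17.0 in Mx, and outside Mx it scored 5.61 in PA2 replicate 2 and was listed in no FNP or knockout library.

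On the Md side, *Foxl2* was paired with the fragment that holds the start of *Foxb1*, 29196 kb away, with 10.34 and 9.93 in Md and 5.30 in FNP replicate 2. *Osr1*, an odd-skipped gene of palate and limb, was paired with a fragment 605 kb away with 11.9 and 11.2 in Md and 5.46 and 5.02 in FNP, and in 1 knockout PA2 library with 5.23. *Irx5* was paired with a fragment 553 kb away with 10.03 and 13.55 in Md and 10.61 and 7.11 in knockout PA2, and was not listed in FNP or wild-type PA2.

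The 80 called pairs that were listed in all 4 libraries included 2 of *Hand2* and 4 of *Tbx2*, in the windows described above, and 8 with a histone gene at the bait. *Hand2* with the fragment at chr8:56637507-56640201 scored 8.94 and 8.92 in Mx, 20.4 and 27.2 in Md, 6.52 and 11.99 in FNP, and 19.0 and 21.6 in PA2. *Tbx2* with the fragment at chr11:85491708-85492385 scored 19.3 and 16.4 in Mx, 7.53 and 6.82 in Md, 9.70 and 9.45 in FNP, and 7.44 and 9.87 in PA2. The limma adjusted p values were 0.0486 and 0.0350, in a ranking that also holds the 13340 one-sided calls. With pairs listed in at least 3 of the 4 libraries, the lowest limma adjusted p was 0.793. The direction was that of the one-sided pairs of each gene, which come from the same bait and libraries and are no separate evidence.

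*Eya1* with a fragment 198 kb away scored 13.8 and 14.2 in Mx and 5.36 and 6.49 in Md (limma adjusted p = 0.0399). *Tfap2b*, a crest transcription factor gene, was paired with a fragment 1262 kb away with 8.13 and 8.94 in Mx and 27.3 and 24.0 in Md (limma adjusted p = 0.0328). The largest difference among the 80 was that of *Zfp184* with a fragment 1566 kb away in the histone cluster of chromosome 13, with 20.5 and 26.3 in Mx and 5.63 and 5.11 in Md. None of these pairs was called when pairs had to be listed in at least 3 libraries.

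Libraries outside the comparison were used to ask with which side other CNCCs share one-sided pairs, since they took no part in choosing them. FNP replicates 1 and 2 listed 33.6% and 37.6% of the Mx-side pairs and 30.3% and 34.1% of the Md-side pairs. The PA2 replicates listed 31.6% and 32.5% of the Mx-side and 32.7% and 33.8% of the Md-side pairs. The share of Mx-side minus that of Md-side pairs was 3.29 and 3.49 percentage points in FNP, -1.15 and -1.30 in PA2, 0.88 and 1.14 in knockout PA2, 0.08 and -3.27 in the E12.5 pinna, and -0.88 and -1.88 in the E14.5 pinna. Both FNP libraries were above the other 8. Pairs listed in all 4 Mx and Md libraries were listed in 68.7% to 89.3% by these 10 libraries.

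The mean share difference was 3.39 ± 0.14 percentage points (SD, n = 2) in FNP and -0.80 ± 1.46 (SD, n = 8) in PA2 and pinna, a difference of 4.19. Exact permutation over the 45 groupings gave a two-sided p of 0.0222, their minimum. It treated the 8 libraries as single independent units, although they are replicate pairs of conditions that differ in tissue, stage, genotype and sorting marker. The p therefore does not measure FNP against other CNCCs in general. Against the wild-type PA2 libraries alone the difference was 4.62 with an exact permutation p of 0.333, the minimum for 6 groupings. The direction depended on both Mx libraries. When Mx-side pairs were taken from a single Mx library and no Md library, the difference was -2.84 without Mx replicate 1 and -3.95 without Mx replicate 2, with exact permutation p values of 0.4 and 0.333, and it was 6.92 without Md replicate 1 and 9.80 without Md replicate 2.

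**Figure D5:**
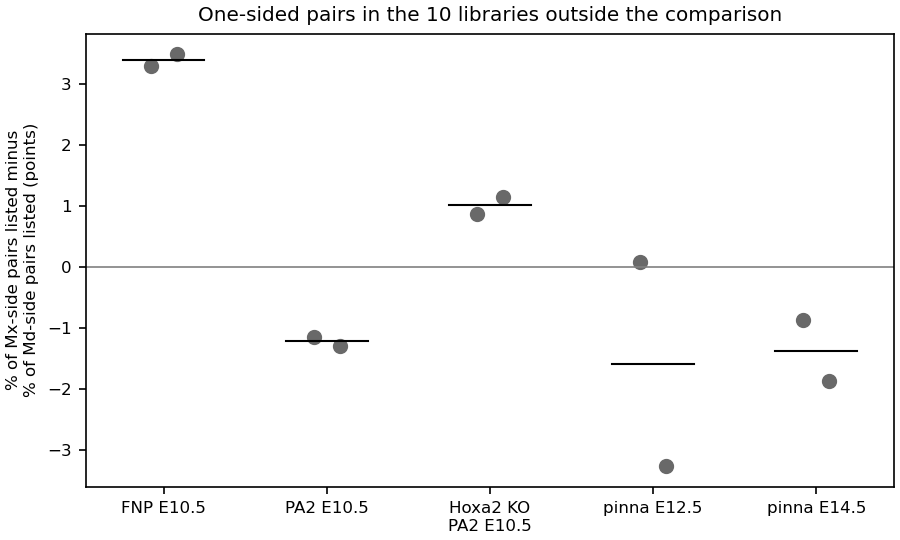
Percentage of Mx-side pairs listed minus percentage of Md-side pairs listed, in percentage points, for each of the 10 libraries outside the comparison (points, libraries; lines, means of 2 libraries; the horizontal line is 0). The FNP libraries lie at 3.29 and 3.49 and the wild-type PA2 libraries at -1.15 and -1.30.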

How the data were processed

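PCHi-C libraries of wild-type E10.5 Mx and Md CNCCs were analyzed, with 2 replicates each as given by the labels. The authors processed the reads with HiCUP and scored pairs with CHiCAGO on GRCm38/mm10. The deposited file of each library gives a bait fragment, another fragment and the CHiCAGO score, and holds no score below 5, no reads and no pooled columns. All 524028 fragments of the lists matched HindIII fragments of GRCm38.

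Pairs between chromosomes were left out, and unlisted pairs were set to 0. A pair of 2 baits is listed once and was counted for both. List totals were summed over genes, so a bait shared by genes of a list counts for each. A bait was assigned to each gene with an annotated transcription start in it. Pairs were compared with limma 3.58.1 in R 4.3.3 (moderated with a mean trend) after an asinh transform of the scores, over the pairs that at least 2 of the 4 libraries listed. Baits were compared with limma on log2 of the number of listed pairs, scaled to the mean library total, plus 1, for baits with a mean of at least 3 pairs. P-values were adjusted by Benjamini-Hochberg over all features, with a threshold of 0.05. Single values per library were compared with two-sided exact permutation tests in Python 3.11.15. The fits were tested on simulated data, where the pair fit with this filter called many unchanged pairs and the bait fit missed small changes and recovered most large ones.

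The members and the gene lists were chosen with earlier results of these data known. Named pairs and baits were, for each side, the 10 pairs with the highest lower score (1 per bait), the 10 baits with most one-sided pairs, the 10 strongest limma calls, list genes with at least 2 one-sided pairs on a side or 1 with a score of 10 or more in both libraries, and *Hand2*, *Pitx1*, *Dlx1*, *Dlx2*, *Dlx5*, *Dlx6* and *Pou3f3*. Some genes that this rule picks are not reported here. The other genes named were chosen after their values were seen. A shortened list of super-enhancers was not used here.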

Additional observations from a re-analysis of the deposited data

Results flagged for a closer look

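Pairs between chromosomes, left out of the comparison, were also listed by several libraries. A total of 715 such pairs were listed in all 4 Mx and Md libraries, 127 in both Mx libraries and no Md library, and 178 in both Md libraries and no Mx library. The strongest of those in all 4 libraries joined the *Wnt1* bait (chr15:98784886-98791552) to fragments on chromosome 11. With the fragment at chr11:6468951-6471178, the *Wnt1* bait scored 1532 and 1584 in Mx, 1387 and 1882 in Md, 1390 and 1485 in FNP, and 1137 and 1647 in PA2. With the fragment at chr11:6411306-6417312, which holds the *Ppia* promoter, it scored 1484 and 1364 in Mx and 1311 and 1854 in Md. The neighbouring bait of *Ddn* was joined to the same *Ppia* fragment with 1181 and 988 in Mx and 1079 and 1439 in Md. The methods state that the wild-type cells came from embryos with a Wnt1::Cre transgene, and its relation to these pairs was not tested. Among one-sided pairs between chromosomes, *Sfi1* on chromosome 11 was joined to *Ugt1a1* on chromosome 1 with 76.9 and 63.1 in Mx, and also with 16.5 and 54.8 in FNP and 16.2 in PA2 replicate 1.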

How the results depend on the processing

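The counts of one-sided pairs followed the score threshold. With a lowest score of 7 there were 3661 Mx-side and 3411 Md-side pairs, with 10 there were 1283 and 1178, and with 10 or more in both listing libraries 73 and 155. With 1 library left out, which loosens the rule, the counts ran from 15157 to 67109 and from 16663 to 93341. The limma count of pairs was 0 with pairs listed in at least 3 libraries, with the filter on FNP and PA2, with no filter, with unlisted pairs set to 2.5 and with any library left out (0 to 0), and it was 6498 with 8 libraries and 4058 with 14 libraries in the fit. With the replicate number as a block limma called 11123 pairs and 0 baits. Deviations of same-numbered libraries correlated by 0.07 over baits and 0.12 over pairs, and the labels give the number only. Bait calls ran from 0 to 46 with 1 library left out and were 0 under all other alternatives run, those under 2 Mb and with pairs listed under the bait only, added after seeing the data, included. The difference between FNP and the other libraries was 12.9 (p = 0.0889) with scores of 10 or more, 4.62 (p = 0.333) against wild-type PA2, 3.5 (p = 0.0667) within E10.5, and 4.52 (p = 0.0667) with equal numbers of pairs, by exact permutation tests, and ran from -3.95 to 9.80 with 1 library left out, reversed at -2.84 without Mx replicate 1 and -3.95 without Mx replicate 2. Of the alternatives for list totals, 129 moved the value by more than 1.5 times and 69 did not, and for named baits and genes 607 and 393. The causes were not tested. The 3-pair floor for baits and the score threshold of 5 limit what can be seen at promoters with few contacts, and the depth is unknown.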
